A study of Mus musculus with 20 samples.

Results

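The receptors for the colony-stimulating factors, and the one ligand of the family that was measured, were followed here in mouse bone marrow-derived macrophages (BMDM). The 6 genes were Csf1r, Csf2ra, Csf2rb, Csf2rb2 and Csf3r, which encode receptor chains, and Csf1, which encodes macrophage colony-stimulating factor (M-CSF). They were chosen by symbol, through the GENCODE M21 entry of each Ensembl identifier, and all 6 were found among the 14456 genes listed in the table of normalized counts. They and the gene lists below were chosen with earlier results of these data known. Counts of called members or list genes beside the share of all genes are therefore a description and not a test.

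The receptor encoded by Csf1r is a tyrosine kinase that binds M-CSF and interleukin-34, and it governs the survival, proliferation and differentiation of macrophages. The receptor for granulocyte-macrophage colony-stimulating factor (GM-CSF) pairs a ligand-binding alpha chain, encoded by Csf2ra, with the common beta chain encoded by Csf2rb, which the receptors for interleukin-3 and interleukin-5 also use. Mice carry an additional beta chain gene, Csf2rb2, whose product serves the interleukin-3 receptor. Csf3r encodes the receptor for granulocyte colony-stimulating factor, best known from neutrophils and their precursors. Beta chains and the Csf3r product have no kinase of their own and signal through JAK kinases and STAT proteins.

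The marrow came from male C57BL/6J mice aged 8 to 12 weeks, and every culture had been differentiated with 25 ng/ml of M-CSF, so that all groups share this exposure to the ligand of Csf1r. In the glucose experiment, the medium of the last 24 h held 25 mM glucose in the high glucose group (n = 4 libraries), and in the normal glucose group (n = 4 libraries) it held 5.5 mM glucose plus 19.5 mM mannitol as an osmotic control. In the exosome experiment, naive BMDM received PBS, or 2000000000 particles per ml of exosomes released by BMDM in normal glucose (BMDM–NG-exo) or in high glucose (BMDM–HG-exo), for 24 h (n = 4 libraries each, with 4 dates shared by the 3 groups). Libraries were made from stranded total RNA and held between 34016445 and 56310712 reads on listed genes (median 43311931). The exosome libraries come from separate exosome preparations, by the study's account, and carry different dates within a group. The labels do not say whether the libraries of a group came from separate mice, so that p-values measure the spread between these libraries, which in the glucose experiment may be technical. The values are normalized counts, that is, reads per gene divided by 1 size factor per library.

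The beta chain genes are neighbours that point away from each other on chromosome 15 (genome build GRCm38). Csf2rb2 (ENSMUSG00000071714) occupies chr15:78282507-78305721 on the minus strand and Csf2rb (ENSMUSG00000071713) occupies chr15:78325752-78353847 on the plus strand, with 20030 bp between them.

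The beta chain genes resemble each other so closely that their reads need a separate look. Their coding sequences, of 2688 bases for Csf2rb and 2634 bases for Csf2rb2, were 95.2% identical over the aligned bases, with 125 differences and 66 columns with a gap. The most different block of 60 bases held 13 differences. It is shown here because reads over such stretches tell the genes apart, with the differing bases in capitals, for Csf2rb at chr15:78338893-78338952 on the plus strand and for Csf2rb2 at chr15:78294379-78294438 on the minus strand.
Csf2rb: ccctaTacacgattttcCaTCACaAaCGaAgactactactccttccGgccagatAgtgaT
Csf2rb2: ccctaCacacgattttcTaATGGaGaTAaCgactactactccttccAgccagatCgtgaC
The longest identical run was 242 bases long. Its first 100 bases lie at chr15:78348577-78348676 on the plus strand in Csf2rb and at chr15:78284772-78284871 on the minus strand in Csf2rb2. A single read from this stretch cannot by itself be assigned to either gene. The study sequenced read pairs, so that the other read of the pair can still assign it where that read lies outside the stretch.
Csf2rb and Csf2rb2: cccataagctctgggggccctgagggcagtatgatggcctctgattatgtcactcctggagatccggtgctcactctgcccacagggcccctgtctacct
Of the windows of 100 bases in the transcripts, 334 of 7218 for Csf2rb (4.63%) and 334 of 4897 for Csf2rb2 (6.82%) occurred in both genes. These shares take no account of the other read of a pair. The counts of these genes are uncertain in so far as shared reads were dropped or split between them. Csf1r, Csf2ra and Csf1 shared no such window with another gene, and Csf3r shared 14 of 3726 (0.376%) with AC105061.2.

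Counts were set against the length of the annotated exons, since longer transcripts give more reads. This length joins all annotated exons of a gene and need not be that of the transcript expressed, so close rankings depend on the annotation. Per kilobase of exon, Csf1r stood far above the other members. Its mean over the 20 libraries was 18305 normalized counts per kb, and 0.354% of the listed genes lay above it. Csf2ra followed with 2184 and Csf2rb2 with 2170 normalized counts per kb, whose ranges over the libraries overlapped. Csf3r had 1472 and Csf2rb had 1379 normalized counts per kb, again with overlapping ranges. The level per kb of Csf1r was thus 8.38 times that of Csf2ra, 12.4 times that of Csf3r and 13.3 times that of Csf2rb. The ligand gene was the exception among the members. Csf1 had a mean of 17.2 normalized counts per kb, and 86.5% of the listed genes lay above it. Its reads ran from 55 to 171 per library, against at least 4035 for each receptor gene, so that its values are much less precise.

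Csf1r (ENSMUSG00000024621) lies on the plus strand of GRCm38 at chr18:61100598-61132149, and Hmgxb3, a listed gene, overlaps it on the opposite strand, from which the strand-specific counting separates it. Csf2ra (ENSMUSG00000059326) is at chr19:61223957-61228429 on the minus strand. Csf3r (ENSMUSG00000028859) is at chr4:126024550-126044440 on the plus strand, and Csf1 (ENSMUSG00000014599) is at chr3:107741048-107760469 on the minus strand.

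**Figure D1:**
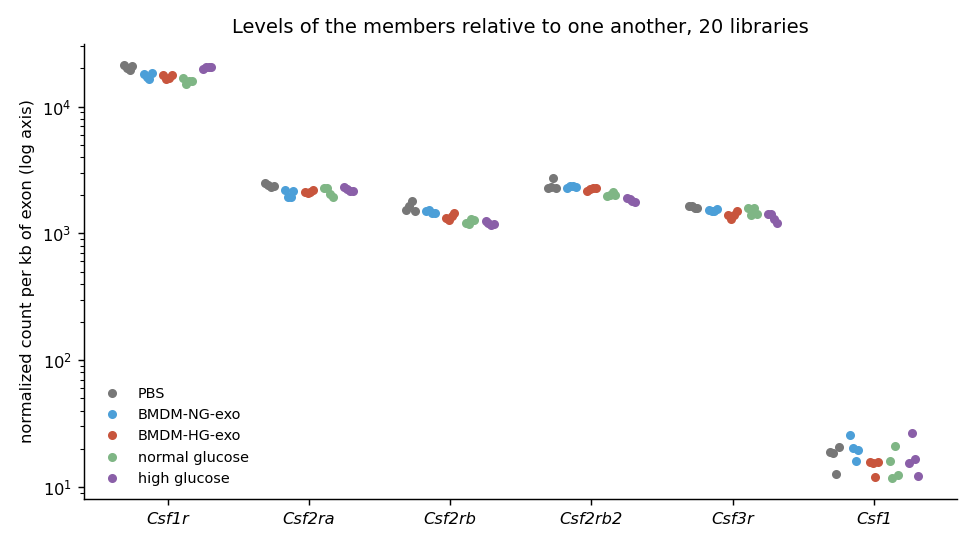
Normalized counts per kilobase of exon (log axis) of the 6 genes, with 1 point for each of 20 libraries coloured by group. Csf1r lies near 18305 normalized counts per kb, the other 4 receptor genes between 1170.4 and 2714, and Csf1 between 11.7 and 26.5.

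In high glucose, Csf1r rose by 27.5%, while Csf2rb2 fell by 9.48% and Csf3r fell by 10.4%, and Csf2ra, Csf2rb and Csf1 did not pass the test. Csf1r had 113740.5, 118804, 117317 and 119111 normalized counts in the high glucose libraries and 96325, 87079, 92138 and 92579 in those of normal glucose. All high glucose libraries lay above all normal glucose libraries. The means were 117243 ± 2463 and 92030.1 ± 3798 normalized counts (SD, n = 4 each), and the log2 fold change was 0.35 (95% interval 0.28 to 0.42, limma, adjusted p = 5.63e-10). In bulk RNA, more cells of a type and more RNA per cell cannot be told apart. The most abundant macrophage marker, the lysozyme gene Lyz2, was also higher (log2 fold change 0.42), but the sum of the other 8 macrophage markers overlapped, with 135577 to 142321 normalized counts in normal glucose and 136511 to 140849 in high glucose. The part of the cells' makeup in the result was not tested.

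Csf2rb2, the interleukin-3 beta chain, moved the opposite way. Its normalized counts were 9321, 9585, 10081 and 9523 in the normal glucose libraries. The high glucose libraries had 9016, 8898, 8532 and 8414, all below them. Its log2 fold change was -0.14 (95% interval -0.22 to -0.07, limma, adjusted p = 0.00733). Without normal glucose library 5, the highest of its group, the value was -0.12 and the adjusted p from limma was 0.0513.

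For Csf3r, the normal glucose libraries had 5700.0, 5045, 5666 and 5110.2 normalized counts and the high glucose libraries 5100.3, 5103, 4703 and 4391. The groups overlapped, with 2 of the 4 high glucose libraries below all those of normal glucose. Its log2 fold change was -0.16 (95% interval -0.26 to -0.06, limma, adjusted p = 0.0254). The call was lost without normal glucose library 1 (log2 fold change -0.13, adjusted p = 0.0759), normal glucose library 5 (-0.13, adjusted p = 0.119), high glucose library 4 (-0.15, adjusted p = 0.0784) or high glucose library 6 (-0.11, adjusted p = 0.172), all from limma.

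The shares that follow are a description, since the members were chosen with earlier results of these data known. The members called were 3 of 6, in a comparison in which 13.3% of the 14425 genes tested were called. Of these members 1 was higher and 2 were lower, where 7.74% of all genes were called higher and 5.53% lower, and where quantile normalization, which forces 1 distribution on all libraries, turned the split of all called genes from 1116 higher and 798 lower to 789 higher and 872 lower. The direction and call of each of these 3 members were the same with it. The libraries of high and normal glucose did not overlap for 2 members, against 16.3% of all genes. The median log2 fold change was 0.0021 over the members and -0.0031 over all genes. Csf2ra, the GM-CSF alpha chain, had 6126 ± 478 normalized counts at normal and 6346 ± 210.0 at high glucose (SD, n = 4 each), and Csf2rb, its beta partner, had 9052 ± 357 and 8744 ± 266. The 95% intervals of their log2 fold changes ran from -0.04 to 0.15 and from -0.13 to 0.03. Csf1 had 80.8 ± 22.7 normalized counts at normal and 93.6 ± 32.4 at high glucose (SD, n = 4 each), with an interval from -0.31 to 0.70 that leaves sizeable changes in both directions possible.

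**Figure D2:**
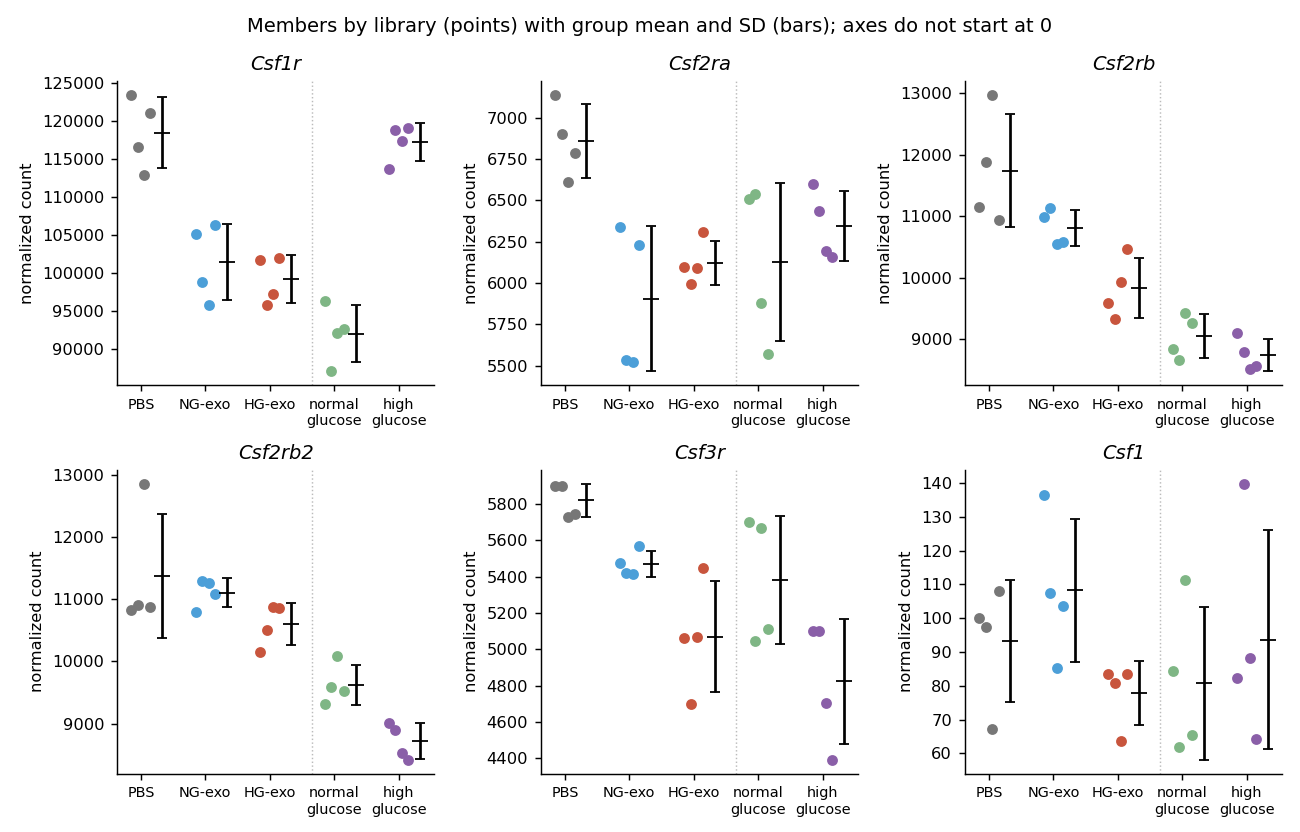
Normalized counts (vertical axes, not starting at 0) of each gene in the 5 groups, with 1 point per library and the group mean and SD beside the points; a dotted line separates the exosome experiment from the glucose experiment. Csf1r is higher in all 4 high glucose libraries than in normal glucose, and lower in all 8 libraries with exosomes than in the 4 PBS libraries.

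With exosomes in place of PBS, the receptor genes that were called were all lower. With BMDM–NG-exo these were Csf1r and Csf2ra. Csf1r had 105139, 98773, 95859.6 and 106269 normalized counts with BMDM–NG-exo and 123454, 116603, 112876 and 121018 with PBS, without overlap. Its log2 fold change was -0.22 (95% interval -0.29 to -0.16, limma, adjusted p = 2.5e-05), so that the level fell by 14.4%. With quantile normalization the value was -0.154 (limma, adjusted p = 0.0107), close to the required absolute log2 fold change of 0.15. Without a trend of variance the call was lost (limma, adjusted p = 0.0821).

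Csf2ra had 6338, 5532, 5524 and 6227 normalized counts with BMDM–NG-exo and 7138, 6902, 6608 and 6788 with PBS. The groups did not overlap, although the BMDM–NG-exo libraries fell into a higher and a lower pair. The higher pair carried January dates and the lower pair December dates, while the PBS libraries did not split by month. The main fit did not use the dates. The log2 fold change was -0.22 (95% interval -0.31 to -0.13, limma, adjusted p = 0.00146). Thus 2 of the 6 members were called, both lower, where 2.11% of the 14413 genes tested were called lower. The groups did not overlap for 3 members, all lower, against 4.63% of all genes. The member without overlap that was not called was Csf3r, with 5475, 5420.0, 5415 and 5567 normalized counts with BMDM–NG-exo and 5902, 5898, 5731 and 5747 with PBS (log2 fold change -0.09, limma, adjusted p = 0.331).

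With BMDM–HG-exo against PBS, 4 of the 6 members were called and all 4 were lower, where 4.84% of the genes tested were called and 3.08% were called lower. The groups did not overlap for these 4 genes, while 5.59% of all genes were lower without overlap. The median log2 fold change of the 6 members was -0.22 and that of all genes 0.0034. This comparison shares the PBS libraries with the one before it, so that a high or low PBS library moves both. All genes tested reach down to a mean of 10 normalized counts, while each receptor gene had at least 4035 reads per library. The shares of all genes are thus not matched to the members for level, in this and the other comparisons.

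Csf1r had 101766, 95751, 97209.8 and 102005 normalized counts with BMDM–HG-exo, all below the PBS libraries given above. Its log2 fold change was -0.26 (95% interval -0.32 to -0.19, limma, adjusted p = 1.24e-06). With quantile normalization the value was -0.12 (limma, adjusted p = 0.0496) and did not reach the required absolute log2 fold change of 0.15.

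Csf2rb, the common beta chain, had 9589, 9334, 9924 and 10468 normalized counts with BMDM–HG-exo and 11157, 11884, 12978 and 10944 with PBS. All BMDM–HG-exo libraries lay below all PBS libraries, and PBS library 3 was the highest. The log2 fold change was -0.25 (95% interval -0.34 to -0.17, limma, adjusted p = 8.79e-05), and it was -0.21 (limma, adjusted p = 0.000875) without PBS library 3.

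Csf3r had 5064, 4701, 5068 and 5448 normalized counts with BMDM–HG-exo, below all PBS libraries, with a log2 fold change of -0.20 (95% interval -0.29 to -0.12, limma, adjusted p = 0.00142). Csf2ra had 6097, 5995, 6089 and 6307 normalized counts, also below all PBS libraries, with a log2 fold change of -0.16 (95% interval -0.25 to -0.07, limma, adjusted p = 0.0172). This was the call closest to the thresholds. It was lost without PBS library 1 (log2 fold change -0.14, adjusted p = 0.0834), PBS library 2 (-0.16, adjusted p = 0.0509) or BMDM–HG-exo library 2 (-0.15, adjusted p = 0.0658), all from limma.

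Csf2rb2 was not called against PBS. It had 10156, 10511, 10884 and 10866 normalized counts with BMDM–HG-exo, 10789, 11295, 11263 and 11081 with BMDM–NG-exo, and 10832, 10914, 12865 and 10882 with PBS. The groups overlapped, and PBS library 3 stood apart from the other 3 of its group. Its log2 fold change for BMDM–HG-exo against PBS was -0.10 (95% interval -0.18 to -0.01, limma, adjusted p = 0.214), and without PBS library 3 it was -0.04 (limma, adjusted p = 0.675).

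The direct comparison of BMDM–HG-exo with BMDM–NG-exo asks whether the glucose level of the donor cells mattered, and no member was called in it (0 of 6, with 0.0139% of all genes called, and 2 members at an unadjusted p under 0.05 in limma, which were Csf2rb and Csf3r). DESeq2 and edgeR on the recovered reads also called 0 members. With the date as a block, 22 genes were called in place of 2, none of them a member. The groups did not overlap for Csf2rb and Csf1, both lower with BMDM–HG-exo, where 2.01% of all genes were lower without overlap. Csf2rb had 10988, 11139.8, 10556 and 10577 normalized counts with BMDM–NG-exo, and the log2 fold change was -0.14 (95% interval -0.23 to -0.05, limma, adjusted p = 0.490). Csf1 had 83.5, 80.9, 63.8 and 83.4 normalized counts with BMDM–HG-exo and 136, 107, 85.4 and 104 with BMDM–NG-exo, and the log2 fold change was -0.46 (95% interval -0.92 to 0.01, limma, adjusted p = 0.777). This comparison shares its libraries with both comparisons to PBS. For Csf1r, the interval of the log2 fold change ran from -0.10 to 0.03, and for Csf2ra from -0.03 to 0.14.

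Set against PBS and BMDM–NG-exo together, which is how the study framed the exosome question, BMDM–HG-exo gave 0 called members of 6, with 0.201% of all genes called, and 4 members had an unadjusted p under 0.05 in limma. edgeR called 0 members and DESeq2 called 2, Csf2rb and Csf3r. The largest changes of receptor genes were those of Csf2rb, at -0.20 (95% interval -0.29 to -0.11), and of Csf3r, at -0.16 (95% interval -0.24 to -0.07). Only Csf2rb was without overlap, all 4 BMDM–HG-exo libraries being below all 8 control libraries, where 0.597% of all genes were lower in this way. The adjusted p of Csf2rb from limma was 0.0553, and it was 0.0126 without BMDM–NG-exo library 3, 0.0336 without BMDM–NG-exo library 1, 0.0479 without BMDM–NG-exo library 4 and 0.0415 without BMDM–HG-exo library 4. For Csf3r the adjusted p from limma was 0.0750, and it was 0.0320 without BMDM–NG-exo library 3 and 0.0481 without BMDM–HG-exo library 4. Csf1r passed only without BMDM–NG-exo library 3 (log2 fold change -0.17, limma, adjusted p = 0.0393). These control libraries are those of the comparisons above, so the values are not a further piece of evidence.

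**Figure D3:**
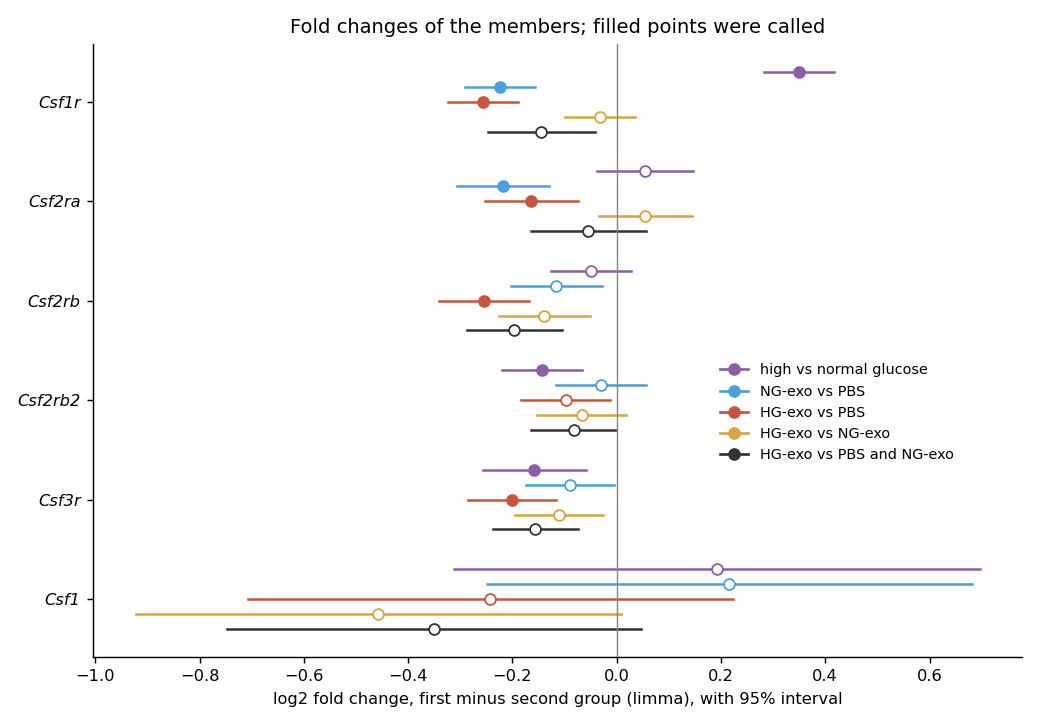
Log2 fold changes of the 6 genes in the 5 comparisons (points, horizontal axis) with 95% intervals from limma; filled points were called. For Csf1r, the point for high glucose lies at 0.35 and those for BMDM–NG-exo and BMDM–HG-exo against PBS at -0.22 and -0.26, and the widest intervals are those of Csf1.

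Each member was also tested on its own with a two-sided exact permutation test, 30 tests in all. With 4 libraries against 4 the smallest p this design allows is 0.0286, which was reached wherever the groups did not overlap. After Benjamini-Hochberg adjustment over the 30 tests these results had an adjusted exact permutation p of 0.0659. The smallest adjusted value, 0.0606, belonged to Csf2rb in BMDM–HG-exo against both control groups (unadjusted exact permutation p = 0.00202, the smallest that 4 against 8 libraries allow), so that none was under 0.05.

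The order of the groups by mean level differed between the members. Levels of the glucose and exosome experiments are set side by side without a test, since the cultures were separate. Csf1r was highest in PBS and high glucose, which overlapped, lower in both exosome groups, which also overlapped, and lowest in normal glucose, whose range overlapped that of BMDM–HG-exo. Csf2ra was highest in PBS, which overlapped with no neighbour, and the other 4 groups overlapped from each to the next. Csf2rb fell from PBS over BMDM–NG-exo, BMDM–HG-exo and normal glucose to high glucose, and only the step from BMDM–NG-exo to BMDM–HG-exo was without overlap. For Csf2rb2 the order was the same, and here the steps without overlap were those from BMDM–HG-exo to normal glucose and from normal glucose to high glucose. Csf3r was highest in PBS, without overlap with the next group, and lowest in high glucose. Csf1 was highest in BMDM–NG-exo and lowest in BMDM–HG-exo, and all its neighbours in the order overlapped. The coefficient of variation within a group was between 1.29% and 8.75% for the receptor genes and between 12.2% and 34.6% for Csf1.

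The ratio of Csf2rb2 to Csf2rb within a library does not depend on the size factor. Both genes had nearly the same normalized count in every library, the ratio running from 0.918 to 1.13, and Csf2rb2 was the higher in 13 of 20 libraries. These counts are not set against exon length, which is 4740 bp for Csf2rb2 and 7277 bp for Csf2rb. Per kb of annotated exon, the mean level of Csf2rb2 was 1.57 times that of Csf2rb, so equal counts need not mean equal levels. The exon lengths join all annotated exons of a gene. Which transcripts were expressed was not tested, so this factor depends on the annotation. The normal glucose libraries read 1.05, 1.11, 1.07 and 1.03, while those of high glucose read 0.991, 1.01, 1.00 and 0.982, without overlap. The means were 1.06 ± 0.0327 and 0.997 ± 0.0133 (SD, n = 4 each). The log2 difference was -0.09 (exact permutation p = 0.0286, adjusted over 5 comparisons 0.0476), so that Csf2rb2 fell relative to Csf2rb in high glucose.

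In the exosome experiment, the ratio was 0.969 ± 0.0351 with PBS, 1.03 ± 0.0375 with BMDM–NG-exo and 1.08 ± 0.0392 with BMDM–HG-exo (SD, n = 4 each). The libraries read 0.971, 0.918, 0.991 and 0.994 with PBS, 0.982, 1.01, 1.07 and 1.05 with BMDM–NG-exo, and 1.06, 1.13, 1.10 and 1.04 with BMDM–HG-exo. BMDM–HG-exo and PBS did not overlap, and the log2 difference between them was 0.16 (exact permutation p = 0.0286, adjusted 0.0476). Against both control groups together it was 0.11 (exact permutation p = 0.0202, adjusted 0.0476). The log2 difference of BMDM–HG-exo from BMDM–NG-exo, at 0.07 (exact permutation p = 0.143, adjusted 0.143), and that of BMDM–NG-exo from PBS, at 0.09 (exact permutation p = 0.0857, adjusted 0.107), did not pass. Csf2rb therefore fell relative to Csf2rb2 with BMDM–HG-exo against PBS, the opposite direction to that in high glucose. How reads from the shared stretches were assigned, and their part in the ratio, was not tested.

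**Figure D4:**
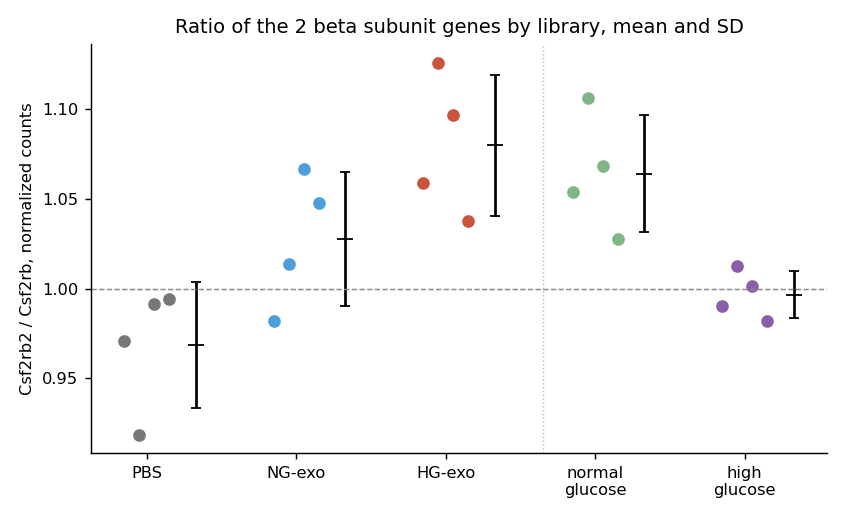
Ratio of the normalized counts of Csf2rb2 and Csf2rb (vertical axis) in each library, by group, with the group mean and SD; the dashed line marks equal counts. The 4 BMDM–HG-exo libraries lie between 1.04 and 1.13, the 4 PBS libraries between 0.918 and 0.994, and the 4 high glucose libraries between 0.982 and 1.01.

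The genes whose levels followed each member most closely were ranked by the smaller of 2 Pearson correlations, one over the 8 glucose libraries and one over the 12 exosome libraries, among 11718 genes whose mean normalized count reached 50. The correlations are a description, since the libraries of an experiment share its group differences. For Csf1r they were Cxcl16, a membrane-bound chemokine (r = 0.970 and 0.965), Cybb, a subunit of the phagocyte NADPH oxidase (0.964 and 0.969), and Spi1, which encodes the myeloid transcription factor PU.1 (0.955 and 0.974). For Csf2ra they were Cited2 (r = 0.849 and 0.847), Epsti1 (0.842 and 0.884) and Ccdc88b (0.842 and 0.874). For Csf2rb they were Prdm1 (r = 0.867 and 0.866), Adgre4 (0.836 and 0.888) and Slc46a3 (0.940 and 0.836). Csf2rb2 shared 1 of these genes, Prdm1 (r = 0.859 and 0.836), beside Dip2b (0.877 and 0.859) and Zfp36 (0.954 and 0.812). For Csf3r they were Fgd2 (r = 0.938 and 0.892), Themis2 (0.849 and 0.853) and Mxd4 (0.837 and 0.860). For Csf1, with its few reads, the closest were Atp6v0d1 (r = 0.827 and 0.788), Magoh (0.724 and 0.770) and Brms1 (0.708 and 0.733).

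Of the other genes of these pathways, 72 were listed by role, as ligands, related receptors, proximal signalling, negative regulators, transcription factors, and early and STAT5 targets, and 61 could be tested. The lists were drawn up with earlier results of these data known, and all genes tested are not matched to them for level. The shares of all genes beside their counts are thus a description. The ligands Il34, Csf2, Csf3, Il3 and Il5 and the receptors Il5ra, Flt3, Kit and Epor are not analysed here. Il3ra, the alpha chain of the interleukin-3 receptor, had between 880.1 and 1206 normalized counts per library and was called in none of the 5 comparisons.

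In high glucose, 21 of the 61 genes were called, 15 higher and 6 lower, where 13.3% of all genes tested were called. The median log2 fold change was 0.05 over the 61 genes and -0.0031 over all genes. With quantile normalization 19 were called, 9 higher and 10 lower, so that the split depended on the scaling. Without high glucose library 6, 13 genes were called.

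The signalling genes called were 5 higher and 1 lower of 22. Among them, Plcg2, a phospholipase gene, had 10972 ± 741 normalized counts at normal and 13243 ± 454 at high glucose (SD, n = 4 each). Pik3r5, which encodes a regulatory subunit of PI 3-kinase, was also higher (log2 fold change 0.16), and the adaptor gene Gab2 was lower (-0.12). Of 15 negative regulators, 5 were higher, including the phosphatase gene Ptpn6 (log2 fold change 0.27), Spred1 (0.24) and Dok3 (0.30), and 1 was lower, Dok2 (-0.33). Of 12 transcription factors, 4 were higher, among them Cebpb (0.38), Spi1 (0.23) and Ets2 (0.24), and Maf was lower (-0.18). Of 11 early and STAT5 targets, the survival gene Mcl1 was higher (0.10), and the urokinase gene Plau (-0.58), the immediate early gene Egr1 (-0.44) and the cyclin gene Ccnd1 (-0.21) were lower.

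Several of these calls rested on single libraries. Without 1 library, Ccnd1 was lost in 5 of 8 fits (normal glucose 1 or 5, high glucose 1, 2 or 6), Gab2 in 5 of 8 (normal glucose 1 or 3, high glucose 1, 2 or 6), Mcl1 in 4 of 8 (normal glucose 5, high glucose 1, 2 or 6), Ets2 in 4 of 8 (normal glucose 3 or 6, high glucose 4 or 6) and Egr1 in 1 of 8 (high glucose 6). Their adjusted p from limma then reached at most 0.139 for Ccnd1, 0.156 for Gab2, 0.102 for Mcl1, 0.0966 for Ets2 and 0.0573 for Egr1. With quantile normalization, Mcl1 and Pik3r5 were not called.

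With BMDM–HG-exo against PBS, 14 of the 61 genes were called, 1 higher and 13 lower, where 4.84% of all genes were called. The count was 8 without PBS library 1 and 9 without BMDM–HG-exo library 3. The tyrosine kinase genes Fgr (log2 fold change -0.46) and Fes (-0.17) were among the 6 signalling genes that were lower. Spi1 (-0.17), Cebpb (-0.19) and Ets2 (-0.21) were the 3 transcription factors called. The call of Ets2 was lost without PBS library 1, 2 or 4 or any 1 of the 4 BMDM–HG-exo libraries, 7 of 12 fits (limma, adjusted p up to 0.162), and that of Cebpb without PBS library 1 or BMDM–HG-exo library 2 or 3 (adjusted p up to 0.0911). Among the negative regulators, Cblb, which encodes a ubiquitin ligase, was higher, with 4207 ± 108 normalized counts against 3421 ± 132 (SD, n = 4 each), and Socs3 (-0.91), Ptpn6 (-0.18) and Dok2 (-0.29) were lower. The call of Dok2 was lost without PBS library 1 or 2 or BMDM–HG-exo library 1, and those of Ptpn6 and Fes without PBS library 1 or BMDM–HG-exo library 3. With quantile normalization, Fes and Ets2 were not called. Socs3 had few reads, at 121 ± 33.6 and 228 ± 54.7 normalized counts. The immediate early gene Fos was the only target called, at 1517 ± 212 normalized counts against 2270.3 ± 217 (log2 fold change -0.59, limma, adjusted p = 1.03e-06).

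With BMDM–NG-exo against PBS, 3 of the 61 genes were called, all lower, among them Fes (log2 fold change -0.18) and Ptpn6 (-0.23). Of all genes tested, 2.11% were called lower there. With quantile normalization 3 were lower and 1 was higher, and with the date as a block 6 were called. Against both control groups together, BMDM–HG-exo gave 2 called genes, Cblb (log2 fold change 0.23) and Fos (-0.47), where 0.201% of all genes were called. The count was 0 without BMDM–HG-exo library 1, 2 or 3, 1 without PBS library 1, 2, 3 or 4, and 4 without BMDM–NG-exo library 3. With the date as a block 1 was called. Against BMDM–NG-exo alone 0 were called by limma and edgeR and 1 by DESeq2 and by limma with the date as a block.

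**Figure D5:**
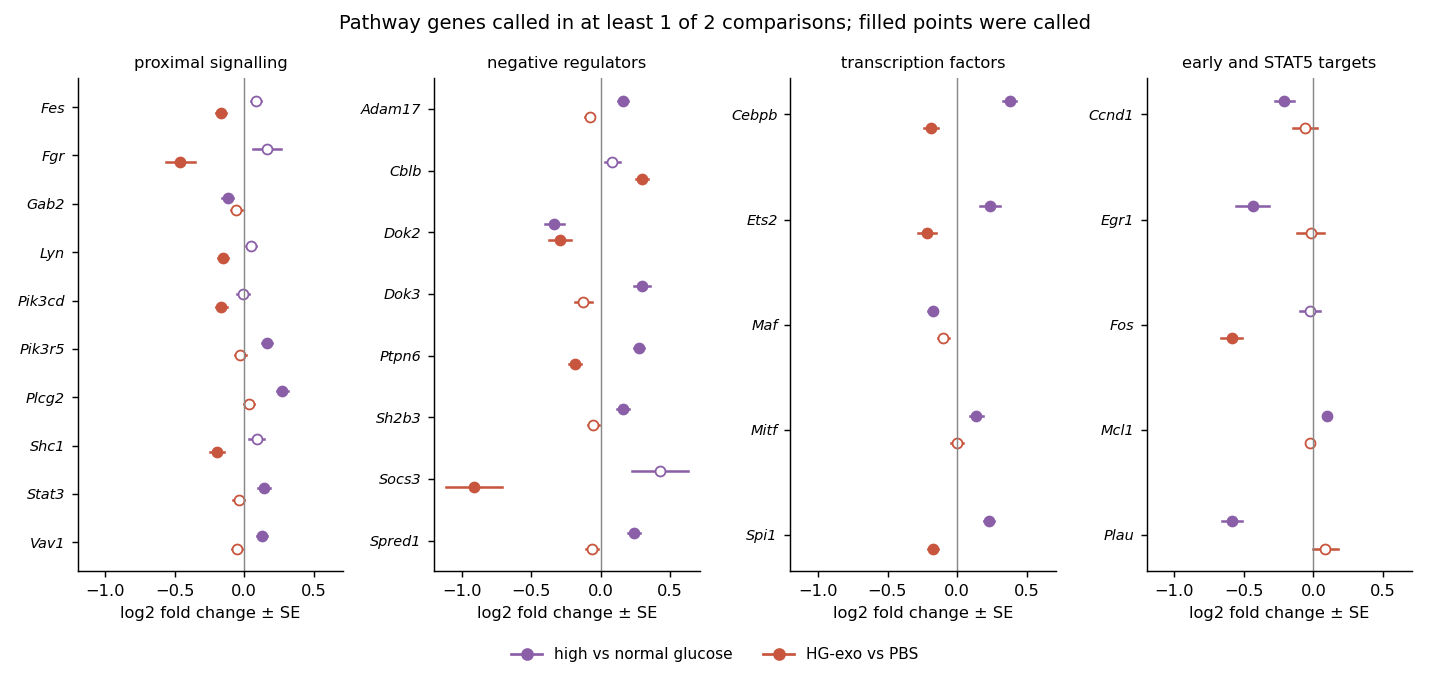
Log2 fold changes (points, horizontal axes) with standard errors of pathway genes called in high against normal glucose or in BMDM–HG-exo against PBS, by role; filled points were called. Ptpn6, Spi1, Cebpb and Ets2 lie to the right in high glucose and to the left with BMDM–HG-exo, and Dok2 lies to the left in both.

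The glucose comparison and that of BMDM–HG-exo with PBS share no library. Of the pathway genes, 6 were called in both, which is 28.6% of those called in the first and 42.9% of those called in the second, where over all genes 325 were called in both, of 1913 called in the first and 698 in the second, or 46.6% of the second. Of these, 5 were higher in high glucose and lower with BMDM–HG-exo, among them Ptpn6, Spi1, Cebpb and Ets2, and Dok2 was lower in both. The call of Ets2 in either comparison, and those of Cebpb, Ptpn6 and Dok2 with BMDM–HG-exo, were among those lost without single libraries. Csf1r and Csf3r were the members called in both, Csf1r in opposite directions and Csf3r lower in each. Over all genes, 79.7% of those called in both moved in opposite directions, so the pattern of Csf1r was also that of most genes called in both.

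A short purine-rich sequence bound by PU.1, GAGGAAG, was searched on both strands of the promoters, taken as 250 bases before to 50 after the start in RefSeq (GRCm38.p6). It occurred in 13.6% of 32851 promoters and in 3 of the 4 member promoters looked at, while Csf1r and Csf2rb were not looked at. These 3 are printed with matches in capitals. Csf2ra and Csf3r were called lower with BMDM–HG-exo against PBS, and Csf3r and Csf2rb2 were called lower in high glucose. Spi1, the gene of PU.1, was called lower with BMDM–HG-exo against PBS but higher in high glucose (log2 fold change 0.23). A link between the matches and these changes was not tested. A match is a run of letters and not a measured binding site.
Csf2ra, chr19:61228369-61228668, minus strand: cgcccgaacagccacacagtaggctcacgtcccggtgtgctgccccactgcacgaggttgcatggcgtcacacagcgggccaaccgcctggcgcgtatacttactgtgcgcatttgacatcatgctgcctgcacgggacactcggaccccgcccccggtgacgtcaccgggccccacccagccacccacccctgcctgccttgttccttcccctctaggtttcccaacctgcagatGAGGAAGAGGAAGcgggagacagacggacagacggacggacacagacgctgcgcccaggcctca
Csf3r, chr4:126024409-126024708, plus strand: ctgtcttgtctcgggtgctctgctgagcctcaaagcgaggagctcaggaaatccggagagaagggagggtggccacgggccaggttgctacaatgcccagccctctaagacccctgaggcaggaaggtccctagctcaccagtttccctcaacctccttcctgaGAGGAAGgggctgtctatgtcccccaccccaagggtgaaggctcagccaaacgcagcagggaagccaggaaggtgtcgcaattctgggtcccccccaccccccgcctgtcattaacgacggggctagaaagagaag
Csf2rb2, chr15:78305672-78305971, minus strand: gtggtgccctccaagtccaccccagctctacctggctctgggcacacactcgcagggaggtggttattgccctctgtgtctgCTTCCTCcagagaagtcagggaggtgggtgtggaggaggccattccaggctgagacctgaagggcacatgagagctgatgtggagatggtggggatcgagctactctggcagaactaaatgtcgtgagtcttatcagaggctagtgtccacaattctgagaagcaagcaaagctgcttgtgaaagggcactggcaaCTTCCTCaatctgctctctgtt
Csf2ra held 2 overlapping matches, Csf3r held 1 and Csf2rb2 held 2 on the opposite strand, and the promoter of Csf1 held none.

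Markers of macrophages and of other cells were read from the same libraries. All 9 macrophage markers were listed, and Lyz2 made up most of their summed normalized counts. The sum lay between 586605 and 655741 in normal glucose and between 737174 and 805813 in high glucose. With PBS it lay between 720083 and 755939, with BMDM–NG-exo between 661917 and 705763 and with BMDM–HG-exo between 678526 and 695349. Without Lyz2, the sum overlapped between high and normal glucose, as given above with Csf1r. It lay between 133290 and 136597 with PBS, between 126152 and 133982 with BMDM–NG-exo, which overlapped with PBS, and between 122254 and 128787 with BMDM–HG-exo, which did not. In high glucose, 4 of the 9 were called higher, among them Lyz2 (log2 fold change 0.42) and Cd14 (0.39), and 3 were called lower, Cd68 (-0.15), Mertk (-0.40) and Mrc1 (-0.47). Over all genes, 7.74% were called higher and 5.53% lower in high glucose. Against PBS, 4 were called lower with BMDM–NG-exo and 4 with BMDM–HG-exo, the latter led by the Fc receptor gene Fcgr1 (log2 fold change -0.60). Of all genes, 2.11% and 3.08% were called lower in these comparisons. Called or not, 6 of the 9 markers with BMDM–NG-exo and 5 with BMDM–HG-exo had a log2 fold change below 0.

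Of 9 neutrophil markers 5 were listed, and Ly6g, Camp, Retnlg and Cxcr2 are not analysed here. Their sum lay between 698 and 898 normalized counts in normal glucose and between 876 and 991 in high glucose. It lay between 1042 and 1453 with PBS, between 1054 and 1374 with BMDM–NG-exo and between 1124 and 1308 with BMDM–HG-exo. Mmp8, a neutrophil collagenase gene, had the highest level of the 5. In high glucose, where Csf3r was lower, Mmp8 was higher (log2 fold change 0.44, limma, adjusted p = 0.000856) while the fold changes of the other 4 were below 0 and not called, with log2 values of -0.83 for S100a8, -0.21 for S100a9, -0.21 for Ngp and -0.20 for Ltf. Mmp8 thus sets the direction of the sum. With BMDM–HG-exo against PBS none of the 5 was called by limma. Progenitor markers (2 of 5 listed, led by Cd34) summed to between 55.5 and 143 normalized counts and stromal markers (4 of 5 listed, led by Col1a1) to between 109.7 and 372, and none was called in any comparison. The markers of dendritic cells, lymphocytes, and mast cells and basophils are not analysed here. The part of other cell types in these results was not tested.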

How the data were processed

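The authors mapped stranded reads with STAR to GRCm38, counted them per gene with FeatureCounts and deposited a signal, the count divided by a DESeq2 median-ratio size factor, for 20 libraries. GENCODE M21 (14421 of the genes) gave names and exon lengths. Genes with a median under 11 reads over the libraries are not analysed here.

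A pseudocount of 1 was added, and log2 values were fitted in R 4.3.3 by limma 3.58.1 (lmFit, eBayes with a trend of variance), two-sided, with Benjamini-Hochberg adjustment over all genes with a mean of at least 10 in the libraries fitted. Genes with an adjusted p under 0.05 were called; for exosomes, the log2 fold change also had to reach 0.15 in size, as in the study. Alternatives were a pseudocount of 8, no filter, TMM or quantile normalization, no variance trend, a replicate block and leaving out each library. The members and gene lists were chosen with earlier results of these data known.

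Whole reads were recovered from the smallest step of each column (100% of values whole within 0.001; the size factors of PBS 4 and BMDM–HG-exo 1 are so near 1 that their columns alone do not show the scaling). They served edgeR 4.0.16 (quasi-likelihood) and DESeq2 1.42.0 as alternatives. On these reads edgeR called 1904 genes for glucose, 445 for BMDM–NG-exo and 691 for BMDM–HG-exo against PBS, 1 between the exosomes and 32 against both controls. No libraries were copies: the chi-square per degree of freedom was at least 5.23 over 30 pairs.

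The exosome labels give 4 dates shared by the groups, which pair the libraries. The main fits and the permutation tests did not use this pairing. Same-date libraries correlated with a mean r of 0.012 after the group means were removed (12 pairs), other libraries with -0.004 (36 pairs). Since residuals sum to 0 within a group, the second value nearly follows from the first and is no separate yardstick. Both run over the genes together, while Csf1r differed between the December and January dates in each group. With the date as a block, 505 genes were called in place of 432 for BMDM–NG-exo against PBS and 810 in place of 698 for BMDM–HG-exo against PBS. Against both controls together 23 were called in place of 29. The genes named were the members, up to 3 called genes per direction and pathway list, the 3 closest genes per member and the leading markers. A few genes of the pathway lists enter the counts but are not reported here by name. Permutation tests used scipy 1.17.1, sequence alignment Biopython 1.88, figures matplotlib 3.10.9, and tables numpy 2.4.6 and pandas 2.3.3, in Python 3.11.15.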

Additional observations from a re-analysis of the deposited data

Results flagged for a closer look

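In 35 sets of 4 libraries (6 genes and the ratio of Csf2rb2 to Csf2rb, in 5 groups), 2 held a library far from the other 3, and chance alone marks about 1 set in 20. PBS library 3 had 12865 normalized counts of Csf2rb2, while the other PBS libraries lay between 10832 and 10914. It was also the highest PBS library for Csf2rb (12978) and the lowest for Csf1r (112876), Csf2ra (6608), Csf3r (5731) and Csf1 (67.2). It was thus at an end of the PBS range for all 6 genes. BMDM–HG-exo library 3 had 63.8 normalized counts of Csf1 from 65 reads, while the others of its group lay between 80.9 and 83.5. In both exosome groups and in PBS, the library of that date had the lowest Csf1 value. The causes were not tested.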

How the results depend on the processing

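Csf1r kept its direction and its call in high glucose under all 8 other settings (log2 fold change 0.29 to 0.35) and without each library in turn (0.32 to 0.37). No setting moved the median of all genes by more than 0.0046 on the log2 scale. The normalizations hold this median near 0 by design, so it does not show how far single genes depend on them. With quantile normalization, Csf1r with BMDM–HG-exo against PBS went from -0.26 to -0.12.

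Without a trend of variance with level, limma called 654 genes (in place of 1914), 1 member and 6 pathway genes for glucose, 95 genes (in place of 432), 0 members and 0 pathway genes for BMDM–NG-exo against PBS, 295 genes (in place of 698), 1 member and 4 pathway genes for BMDM–HG-exo against PBS, 1 gene and 0 pathway genes against both controls, and 1 gene against BMDM–NG-exo. The remaining member in both cases with 1 was Csf1r. For BMDM–HG-exo against both controls, 29 genes became 50 with a pseudocount of 8, 19 with quantile normalization and 136 with DESeq2, with 1 member for the pseudocount, 2 members for DESeq2 and 4 pathway genes for DESeq2. For BMDM–HG-exo against BMDM–NG-exo, 2 genes became 5 with a pseudocount of 8, 1 with TMM, 1 with edgeR and 25 with DESeq2, and DESeq2 called 1 pathway gene there and 5 for BMDM–NG-exo against PBS.

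The replicate numbers of the glucose libraries were not taken as pairs in the main fit. Same-number libraries correlated with a mean r of 0.0071 (2 pairs) and others with -0.0010 (14 pairs). With only 2 pairs, these values cannot tell whether the numbers pair the libraries. High and normal glucose share 2 numbers, and a block then compares 4 libraries. With the number as a replicate block, 788 genes, 1 member (Csf1r) and 10 pathway genes were called, and Csf1 turned to -0.032. In the exosome experiment the block gave 22 genes and 1 pathway gene for BMDM–HG-exo against BMDM–NG-exo, 1 pathway gene against both controls and 6 for BMDM–NG-exo against PBS, and it changed no call of a member.

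Without 1 library each, between 1 and 3 members and 13 and 22 pathway genes were called for glucose. Against both controls these were 1 to 204 genes, 0 to 3 members and 0 to 4 pathway genes, with 1 gene without BMDM–HG-exo library 1 and 204 without BMDM–NG-exo library 3. Against BMDM–NG-exo they were 1 to 7 genes and 0 to 1 pathway genes, for BMDM–HG-exo against PBS 8 to 15 pathway genes, and for BMDM–NG-exo against PBS 3 to 6. Changes of sign were few: Csf1 in high glucose ranged from -0.018 (without high glucose library 2) to 0.36, Csf2rb2 with BMDM–NG-exo against PBS from -0.053 to 0.030 (without PBS library 3), and Csf1r with BMDM–HG-exo against BMDM–NG-exo became 0.035 with quantile normalization. The causes were not tested. Csf1 had 55 to 171 reads per library, so that its relative counting error is larger than that of the receptor genes, which had at least 4035.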
